A study of Mus musculus with 15 samples.

Results

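The onset of joint swelling in mouse collagen-induced arthritis was examined by comparing 3 arrays of knee synovium from mice with mild swelling with 3 arrays from mice with no swelling, 6 of the 15 arrays of the series. The members were chosen by sample title alone, and all probe sets were used. In this model (CIA), injected type II collagen, the main collagen of cartilage, raises an immune response that attacks the joints. Both groups had received the same treatment. It comprised 100 µg of the collagen with FCA, the adjuvant named in the labels, on day 0 and again 100 µg, given intraperitoneally, on day 21. The 2 groups therefore share the immunization and differ, per the labels, in the grade of swelling only. The remaining arrays, 3 each from healthy naive joints and from joints with moderate or severe swelling, entered the model for its estimate of spread, and the moderate group also gave the next step of swelling. The treatment label attached to the naive arrays mentions the immunization as well, so it is not certain that these mice were untreated, and values set beside them carry that doubt. Strain, sex, age and the day of sampling are not stated in the labels used here, and how joints were graded is not stated either. The labels do not state whether replicates came from different animals. P-values therefore reflect the spread among these arrays alone, and this spread may be technical.

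The synovium is a thin membrane that lines the joint cavity. Its lining layer of fibroblasts and macrophages makes hyaluronan and lubricin for the joint fluid, and its sublining layer holds vessels, fat and other fibroblasts. In arthritis, immune complexes and cytokines activate these cells, leukocytes enter through the vessels, and fibroblasts release enzymes that degrade cartilage and matrix.

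Signals are the deposited MAS5 intensities, whose trimmed mean was 150 on every array. Changes are differences of group means on the scale of log2(signal + 16), given ± the standard error of limma's fit over 14313 genes, 3 arrays a group. A gene was called, and is said to rise or fall, at a Benjamini-Hochberg adjusted p under 0.05 in limma's moderated test (two-sided). With 3 arrays on each side, the smallest p of an exact permutation test is 0.1. On the first principal component, with 70.3% of the variance, the arrays without swelling lay at -48.2, -49.1 and -68.8 and those with mild swelling at 18.7, -7.42 and 36.0. The naive mean was -64.4 and the moderate mean 51.1, and mild replicate 2 lay nearest to the unswollen arrays. The tissue label was matched by the lubricin gene Prg4, with signals of 4289, 4077 and 2126 without swelling and 6280.1, 6448 and 7469 with mild swelling, but every array also carried transcripts of muscle and fat. The 13 genes of fast muscle fibres summed to signals from 147658 to 152058 without swelling and from 95379.7 to 101060.0 with mild swelling. Actin 3'/5' probe ratios, a measure of RNA integrity and labelling, were 1.10 ± 0.047 (SD, n = 3) without swelling and 1.16 ± 0.032 with mild swelling. Those of Gapdh were 0.845 ± 0.041 and 0.848 ± 0.0081. The part of muscle content and RNA quality in the results was not tested.

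Mild swelling separated from no swelling across a large share of the transcriptome. Of 14313 genes tested, 5516 were called, which is 38.5%. Of these, 3286 rose (23% of the genes tested) and 2230 fell (15.6%). The groups did not overlap in 6624 genes (46.3%), with all mild arrays above in 3851 (26.9%) and below in 2773 (19.4%). Rises reached further than falls. Among called genes 1237 rose and 305 fell by at least 1 on the log2 scale (2-fold), and 154 rose and 1 fell by at least 2 (4-fold). The median change was 0.85 in the genes that rose, -0.67 in those that fell and 0.09 in all genes. Bright genes fell more often, with 6 rises and 143 falls among the 204 genes whose mean lay at 12 or more on the log2 scale.

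Directions are relative to the overall signal of an array. With quantile normalization 2655 genes rose and 2316 fell, so that 53.4% of calls were rises against 59.6% here. With array medians aligned 2501 rose and 2883 fell (46.5% rises). The hybridization controls, RNAs meant to be added in equal amount to each hybridization, were dimmer on the mild arrays, with geometric means of 424, 420.2 and 546 against 1066, 547 and 853. Scaling on them moved the median of all genes to 0.72 and gave 6511 rises and 35 falls. All 3286 rises were also called as rises under that scaling. Of the 2230 falls, 1887 were also called with quantile normalization and 35 with hybridization control scaling. Counts and medians of gene lists cover the 638 memberships tested. A further 53 lay below the signal filter and 64 had no probe set. Of 393 called genes of the lists, 82 lost the call in at least 1 of the 6 fits without 1 array, and the arrays are named below for genes described individually. A bulk signal cannot tell fewer cells of a type apart from less RNA per cell.

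**Figure D1:**
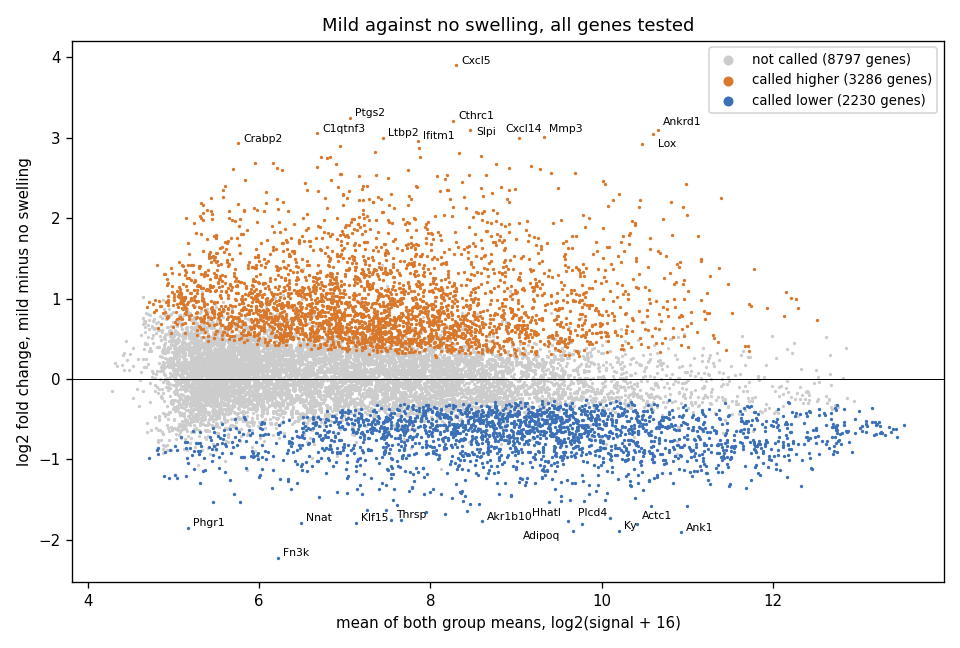
Log2 change from no to mild swelling (vertical axis) against the mean level of each of 14313 genes on the log2(signal + 16) scale (horizontal axis), with 3286 called rises in orange, 2230 called falls in blue and the 12 largest of each named. Rises reach 3.90 for Cxcl5, while falls end at -2.22 for Fn3k and predominate among the brightest genes.

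The 12 genes with the largest rises covered neutrophil attraction, prostaglandin synthesis, matrix assembly and matrix breakdown. The largest was Cxcl5, a chemokine that attracts neutrophils, with signals of 81.7, 73.8 and 46.0 without swelling and 1059.6, 957 and 1716 with mild swelling. It rose by 3.90 ± 0.21 (adjusted p = 7.46e-08), and its mild arrays lay far above those without swelling. Ptgs2, the inducible cyclooxygenase of prostaglandin synthesis, had signals of 44.7, 27.7 and 14.7 without swelling and 399.9, 306 and 506 with mild swelling. It rose by 3.25 ± 0.29 (adjusted p = 1.27e-05). Slpi, a secreted inhibitor of neutrophil proteases, read 129, 117 and 75.0 without swelling and 724, 719 and 1989 with mild swelling. Mmp3, the matrix metalloproteinase stromelysin, read 292, 236 and 131 without swelling and 2147, 889.8 and 3038 with mild swelling. These genes rose by 3.09 ± 0.34 and 3.01 ± 0.37, and both had mild replicate 2 as their lowest mild array. The 12 were chosen among called genes without overlap of the groups, so their lack of overlap is no separate result.

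Genes of collagen handling formed another part of the 12. Cthrc1, a secreted protein of collagen-producing fibroblasts, read 52.8, 153 and 72.7 without swelling and 1376, 296 and 1877 with mild swelling. Lox, which cross-links collagen and elastin, read 632, 799 and 279.6 without swelling and 4833, 2982 and 6013 with mild swelling. Cthrc1 rose by 3.21 ± 0.52 and Lox by 3.04 ± 0.30, and for Cthrc1 mild replicate 2 lay far below the other mild arrays. Ltbp2, a matrix protein of elastic microfibrils, rose by 3.001 ± 0.30, and the secreted protein gene C1qtnf3, dim without swelling (17.7, 20.3 and 20.8), by 3.06 ± 0.43, or 3.75 and 2.08 with 1 and 64 added. The retinoic acid carrier Crabp2 was near background without swelling, with signals of 2.30, 5.30 and 3.10 without swelling and 167, 25.3 and 421 with mild swelling. Its unswollen signals are no measured baseline, so the size of its rise depends on the added 16. It was 2.93 ± 0.55 with 16 added, 4.81 with 1 and 1.67 with 64, and mild replicate 2 again lay far below the other mild arrays. The remaining 3 were the chemokine Cxcl14 (2.99 ± 0.38), the interferon-inducible membrane protein gene Ifitm1 (2.96 ± 0.26) and Ankrd1, a stress-responsive gene of striated muscle, which rose by 3.09 ± 0.49.

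The bases upstream of the transcription start are shown for 3 of these genes, chosen because the RefSeq promoter table (GRCm38.p6) held them and they carried a match to a motif of inflammatory transcription factors. Each run holds the 250 bases before the annotated start, 5′ to 3′ on the gene's strand. They lie at chr9:7445572-7445821 (plus strand) for Mmp3, chr1:150099781-150100030 (plus strand) for Ptgs2 and chr2:164356508-164356757 (minus strand) for Slpi. Capitals mark the matches.
Mmp3: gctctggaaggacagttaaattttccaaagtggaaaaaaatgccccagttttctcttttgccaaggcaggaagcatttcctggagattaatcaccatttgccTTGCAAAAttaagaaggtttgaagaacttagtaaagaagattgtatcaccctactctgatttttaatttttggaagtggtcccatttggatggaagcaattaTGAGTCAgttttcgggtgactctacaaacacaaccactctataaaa
Ptgs2: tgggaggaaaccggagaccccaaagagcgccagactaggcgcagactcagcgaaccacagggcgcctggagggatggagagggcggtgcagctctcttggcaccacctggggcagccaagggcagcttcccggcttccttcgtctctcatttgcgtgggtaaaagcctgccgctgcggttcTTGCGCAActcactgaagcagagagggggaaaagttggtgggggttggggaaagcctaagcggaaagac
Slpi: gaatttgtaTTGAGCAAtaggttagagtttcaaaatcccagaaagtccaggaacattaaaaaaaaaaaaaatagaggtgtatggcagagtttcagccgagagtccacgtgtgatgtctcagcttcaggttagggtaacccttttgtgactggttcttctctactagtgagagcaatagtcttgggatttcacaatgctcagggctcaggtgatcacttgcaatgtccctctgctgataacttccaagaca
Capitals in Mmp3 mark TTGCAAAA, 148 to 141 bases upstream, and TGAGTCA, 46 to 40 bases upstream. In Ptgs2 they mark TTGCGCAA, 69 to 62 bases upstream, and in Slpi TTGAGCAA, 241 to 234 bases upstream. The motifs searched on both strands were TGANTCA for AP-1, TTNNGCAA for C/EBP and, for NF-kB, GGG and TTTCC with any 2 bases between them. TGANTCA occurred in 5.02% of the windows of genes that rose, 4.09% of those that fell and 4.9% of those not called. TTNNGCAA occurred in 7.44%, 7.91% and 7.63%, and the NF-kB motif in 1.74%, 1.15% and 1.31%. These shares cover 2649, 1833 and 7001 genes. Of all 32851 windows in the table, 6.75%, 9.56% and 1.41% held the respective motif. That set is counted by promoter and not by gene, so it is no background for the shares by call. Of the 12 genes 8 had a window, and 3 of these 8 held a match to any of the motifs. The matches are descriptions of the letters only.

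**Figure D2:**
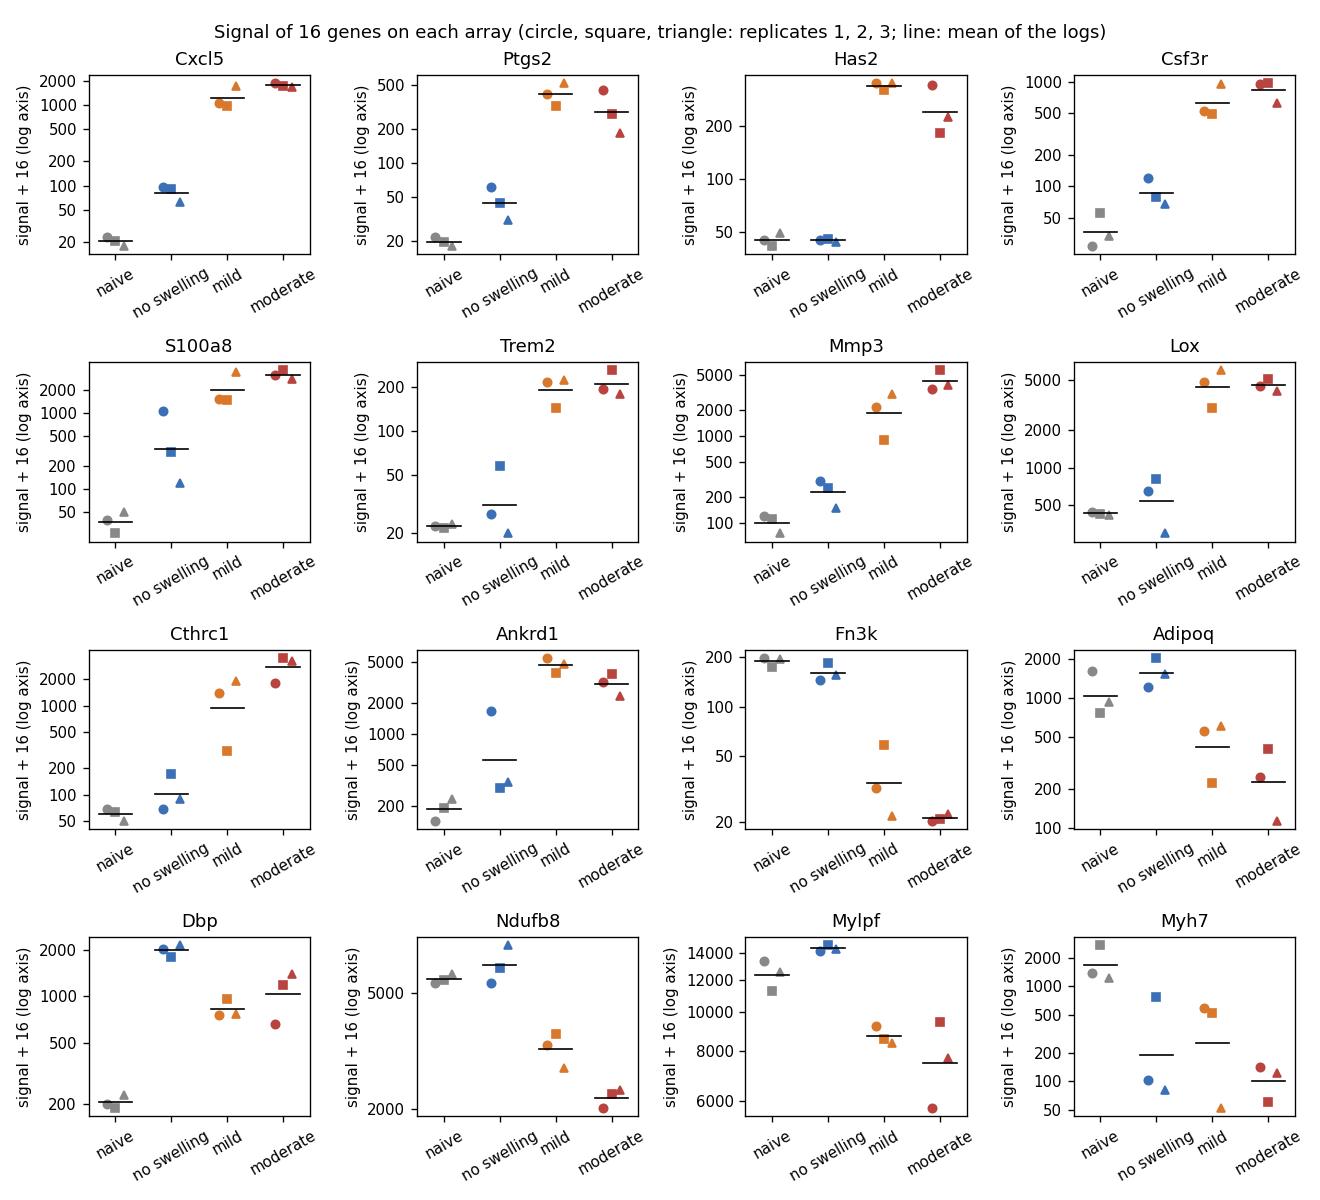
Signal + 16 (log axis) of 16 genes on each array of naive, unswollen, mildly and moderately swollen joints, with 1 marker shape per replicate number and a line at the mean of the logs. Cxcl5, Ptgs2, Has2 and Lox rise at the onset with no overlap between unswollen and mild arrays, Fn3k and Dbp fall, and Myh7 scatters within both groups. Cxcl5, Ptgs2, Lox and Fn3k were chosen among genes without overlap.

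Neutrophil genes rose almost as a whole. Of 14 tested, 13 rose and 0 fell, with a median change of 1.75, where 23% of all genes rose and the median of all genes was 0.09. The summed signal of the 15 genes with a probe set ranged from 1294 to 4101 without swelling and from 6963 to 15255 with mild swelling. Csf3r, the receptor for granulocyte colony-stimulating factor, read 104, 63.4 and 51.6 without swelling and 514, 476 and 938 with mild swelling and rose by 2.87 ± 0.29 (adjusted p = 1.67e-05). S100a8, a subunit of the calprotectin complex of neutrophils and monocytes, read 1054, 292 and 102 without swelling and 1538, 1466 and 3456 with mild swelling, and S100a9, its partner, read 1154, 437 and 146 without swelling and 1843, 1953 and 3920.3 with mild swelling. The 2 subunits rose by 2.56 ± 0.54 and 2.46 ± 0.48. Both were already above the naive arrays, at 22.4, 9.70 and 33.1 for S100a8, on every unswollen array, and replicate 1 without swelling came close to the mild arrays. Mmp8, the neutrophil collagenase, was the member not called (0.42). The granule genes that neutrophils transcribe as precursors in the marrow did not pass the test, with 0 of 7 called and a median of -0.37, or 0.02 without no-swelling replicate 1.

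The ligands of the neutrophil receptor Cxcr2 rose with it. Of 6 neutrophil chemokines, 4 rose, at a median of 2.24 over the list. Beside Cxcl5 these were Cxcl3 (2.63), Cxcl1 (2.38) and Cxcl2 (2.09). Cxcr2 itself rose by 1.90 ± 0.20. Among 22 other chemokines 14 rose and 1, Ccl25 (-0.66), fell. Only without mild replicate 2 was the fall of Ccl25 still called among the 6 fits without 1 array (adjusted p up to 0.171 in limma's test). Ccl2, which attracts monocytes, read 216, 184 and 24.4 without swelling and 631, 562 and 623 with mild swelling, and rose by 2.33 ± 0.46 with no overlap. Its receptor Ccr2 rose by 2.39 ± 0.32, the lymphocyte chemokine Cxcl13 by 1.02, and the interferon-induced Cxcl10 (0.74) and Cxcl9 (-0.01) were not called. Of 11 chemokine receptors 6 rose, including Cxcr4 (2.07), the receptor for Cxcl12, and Cx3cr1 (1.92).

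Monocyte and macrophage genes rose without exception among those tested, 18 of 18, with a median of 1.62. Their summed signal ranged from 4907 to 11693 without swelling and from 18424 to 27384 with mild swelling. Trem2, a lipid-sensing receptor of macrophages, read 10.7, 41.3 and 3.80 without swelling and 199, 126 and 205 with mild swelling and rose by 2.60 ± 0.34. Cd68, a lysosomal protein of macrophages, read 140.0, 163 and 63.9 without swelling and 524, 363 and 505 with mild swelling and rose by 1.86 ± 0.26. Mpeg1, a pore-forming protein of phagocytes, rose by 2.68 ± 0.33. Among resident synovial macrophage genes 3 of 11 rose, a share near the 23% of all genes. These were Cx3cr1 (1.92), Mrc1 (0.90) and Folr2 (0.60), and Sparcl1 (-0.57) fell. Timd4 (0.22), Vsig4 (0.24) and Lyve1 (0.15), which mark long-lived tissue macrophages, were not called. In limma's test Mrc1 had an adjusted p of 0.103 without mild replicate 1 and 0.117 without no-swelling replicate 3. Sparcl1 had 0.196 without mild replicate 3, and 0.0929 and 0.129 without no-swelling replicates 2 and 3. Folr2 was not called without mild replicate 1, mild replicate 3 or no-swelling replicate 3 (adjusted p up to 0.219). The resident list thus had 1 rise without mild replicate 1 or no-swelling replicate 3. Whether these lists differed from each other was not tested.

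The machinery that reads immune complexes rose throughout. All 11 tested genes of Fc gamma receptor signalling rose, with a median of 1.53. The activating receptors Fcgr1 (1.61) and Fcgr3 (1.53), the inhibitory receptor Fcgr2b (1.49), the adaptors Tyrobp (2.37) and Fcer1g (2.02) and the kinase Syk (1.92) were among them. All 9 genes of MHC class II presentation also rose, at a median of 1.46, with the invariant chain Cd74 at 1.96 and the cathepsin gene Ctss at 2.22. Of 13 complement genes 10 rose, among them C3ar1 (2.40) and C5ar1 (1.71), the receptors for the anaphylatoxins. The complement inhibitor Cd59a fell (-0.48), a call lost without mild replicate 3, no-swelling replicate 2 or no-swelling replicate 3 (adjusted p up to 0.117 in limma's test). Of 17 genes of Toll-like receptors and inflammasomes 14 rose, led by Pycard (1.79), Tlr13 (1.71) and Tlr2 (1.63). That count was 9 without mild replicate 1, 8 without mild replicate 3, and 9 with quantile normalization or aligned medians. Of 9 dendritic cell genes 7 rose, with Fscn1 at 1.76 and Itgax at 1.14. The number of dendritic cell genes that rose was 4 without mild replicate 1, mild replicate 3 or no-swelling replicate 1, and 3 without no-swelling replicate 3, with quantile normalization or with aligned medians. Many of these genes are shared by macrophages, neutrophils and dendritic cells, and their lists overlap.

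Lymphocyte genes were dim, and their counts of rises stand beside 23% of all genes. Of 9 T cell genes tested 2 rose, Il7r (1.21) and Cd8a (1.03). Their summed signal over 13 genes ranged from 397 to 463 without swelling and from 451 to 638 with mild swelling, and 6 of the 13, including Cd4 and Foxp3, lay under the 40th percentile on all 6 arrays. Cd3g, part of the T cell receptor complex, read 10.5, 24.9 and 16.9 without swelling and 36.7, 20.1 and 56.2 with mild swelling, with overlapping groups and a change of 0.65 ± 0.29 (adjusted p = 0.0852). Cd8a was not called without no-swelling replicate 2 (adjusted p = 0.0658 in limma's test). None of its other 3 probe sets was called the same way, and the mean of its probe sets changed by 0.19 (adjusted p = 0.386). Natural killer cell genes gave 1 rise among 5, Klrd1 (0.88). Of 10 B and plasma cell genes 3 rose, Sdc1 (1.99), Prdm1 (0.86) and Xbp1 (0.64), none of which is restricted to B cells, while the B cell genes Ms4a1 (0.16) and Cd79a (-0.02) were not called. The immunoglobulin heavy chain gene Ighm fell by 1.42, but its groups overlapped and another of its probe sets was called in the opposite direction. Among 6 mast cell genes 2 rose, Kit (1.22), the stem cell factor receptor, and the tryptase gene Tpsab1 (0.89). In limma's test Tpsab1 had an adjusted p of 0.105 without no-swelling replicate 2, 0.0776 without mild replicate 1 and 0.0514 without mild replicate 2.

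Cytokine genes rose selectively. Of 13 tested, 8 rose, 1 fell, and the median was 1.20. The other 7 of the 20 listed, Il1a, Il12b, Il23a, Ifng, Tslp, Csf2 and Csf3, lay below the signal filter, and over all 20 the median was 0.12. Il6 read 216, 110.4 and 87.5 without swelling and 705, 1074 and 735 with mild swelling and rose by 2.53 ± 0.34. Il1b read 151, 100.4 and 57.1 without swelling and 672, 525 and 705 with mild swelling and rose by 2.52 ± 0.25. Neither cytokine overlapped between the groups, and both stood above the naive arrays without swelling too. Tnfsf11, the osteoclast-inducing ligand RANKL, was near background without swelling and read 61.8, 45.8 and 161 with mild swelling, a rise of 2.25 ± 0.30, or 4.26 and 1.10 with 1 and 64 added. Tnf was dim in both groups, at 6.20, 7.90 and 60.7 without swelling and 8.40, 6.90 and 33.6 with mild swelling, and its change of -0.18 ± 0.46 was not called. Il12a fell by 1.498, and Il17a (0.06) and Il18 (0.18) were not called. Of 16 antagonist and feedback genes 10 rose and 0 fell. Arg1, the arginase of alternatively activated macrophages, rose by 2.50 ± 0.34, the hyaluronan-binding protein gene Tnfaip6 by 2.53 ± 0.24, the growth factor gene Tgfb1 by 2.24 ± 0.24 and the interleukin-1 antagonist Il1rn by 1.45. Socs3, a feedback inhibitor of interleukin-6 signalling, rose by 0.995 ± 0.20, from 1704, 1147 and 1096 to 2514, 2462 and 2795, while the naive arrays read 134, 162 and 128.

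Acute-phase and antimicrobial genes rose in 10 of 15, at a median of 1.60. Saa3, a locally made serum amyloid A, read 784, 462 and 347 without swelling and 2516, 1701 and 3252 with mild swelling and rose by 2.23 ± 0.29. Chil1, a secreted chitinase-like protein of macrophages and chondrocytes, rose by 2.67 ± 0.46, and the pentraxin gene Ptx3 by 1.81. Interferon response genes were called in 4 of 15, Oas1a (1.01), Bst2 (0.97), Oasl2 (0.88) and Irf1 (0.45), beside 23% of all genes. Without mild replicate 2 the count was 9 of 15, and without no-swelling replicate 1 Irf1 was not called (adjusted p = 0.058 in limma's test). Their median was 0.74, or 1.03 without mild replicate 2, and Ifit1 (1.19) and Mx1 (0.87) were not called. Prostanoid and leukotriene genes rose in 7 of 14, including Alox5ap (1.98), the partner of 5-lipoxygenase, and the prostaglandin E synthase Ptges (0.80). NADPH oxidase subunits rose, Ncf1 by 2.24, Ncf4 by 1.97, Cyba by 1.93 and Cybb by 1.41, within a list in which 8 of 14 rose. The extracellular superoxide dismutase Sod3 rose by 2.64 ± 0.29, and the cytosolic Sod1 (-0.64) and Gpx3 (-0.40) fell. Gpx3 was not called without mild replicate 1, no-swelling replicate 1 or no-swelling replicate 3 (adjusted p up to 0.0967 in limma's test).

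Of 12 genes of leukocyte adhesion, on vessel cells and on leukocytes, 8 rose, with a median of 1.42. Itgal, Itgam, Itgb2 and Selplg among them are genes of leukocytes themselves, and Itgam is also in the macrophage list. The call of Sele was lost without mild replicate 1 or 3 or no-swelling replicate 2 or 3 (adjusted p up to 0.0608 in limma's test). Selp, the P-selectin of activated endothelium and platelets, read 83.1, 59.0 and 48.4 without swelling and 254, 322 and 306 with mild swelling and rose by 1.98 ± 0.22. Vcam1, which binds leukocyte integrins, rose by 1.85 ± 0.22 and Icam1 by 1.24. Of 14 endothelial genes 4 rose, Cdh5 (0.73), Plvap (0.70), Pecam1 (0.59) and Emcn (0.52), a share near the 23% of all genes, and the median was 0.25. Without mild replicate 1 Emcn (adjusted p = 0.0661 in limma's test) and Plvap (0.116) were not called, which left 2 rises. Plvap was also not called without mild replicate 3 or no-swelling replicate 3. The difference between the adhesion and endothelial lists was not tested. Of 11 angiogenesis genes 7 rose, among them Hif1a (1.78) and Aplnr (1.78), while Angpt1 fell (-0.57) and Vegfa (-0.35) was not called. Without mild replicate 1 or no-swelling replicate 3, and with quantile normalization or aligned medians, 4 rose. Without mild replicate 2 the list had 2 falls. Pericyte and smooth muscle genes gave 4 rises among 9, led by Mcam (1.30) and Pdgfrb (1.28), and 1 fall, Kcnj8 (-0.72). The fall was not called without mild replicate 1, mild replicate 3, no-swelling replicate 2 or no-swelling replicate 3 (adjusted p up to 0.176 in limma's test).

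Most fibroblast genes of both synovial layers rose. Of 12 lining genes 8 rose and 1, Clic5 (-0.66), fell, while Cd55 had the lowest change of the list (-0.75) but was not called. Clic5 was not called without mild replicate 3, no-swelling replicate 2 or no-swelling replicate 3 (adjusted p up to 0.169 in limma's test). Has2, a hyaluronan synthase, read 29.5, 29.7 and 28.3 without swelling and 331, 301 and 333 with mild swelling, and the naive arrays read 29.4, 25.9 and 33.9. It rose by 2.90 ± 0.20 (adjusted p = 1.68e-06), with little spread within either group. Cdh11, the cadherin that joins lining fibroblasts, read 69.6, 50.1 and 40.1 without swelling and 511, 138 and 757 with mild swelling and rose by 2.54 ± 0.39. Prg4 rose by 1.004 ± 0.23. Among 14 sublining genes 10 rose, including Pdgfra (1.79), Sfrp1 (2.39) and Thy1 (0.88), whereas the proteoglycan gene Dcn (0.07) was not called.

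Matrix genes rose with them. All 16 genes of matrix-remodelling fibroblasts rose, at a median of 1.99, and 15 of 17 collagen and matrix genes rose, at a median of 1.56. Postn, a matricellular protein of remodelling tissue, read 958, 1036 and 555 without swelling and 4149, 2492 and 5443 with mild swelling and rose by 2.20 ± 0.27. Col1a1, a chain of type I collagen, read 1032, 2165 and 807 without swelling and 6457, 4608 and 6691 with mild swelling and rose by 2.25 ± 0.30. The partner chain Col1a2 (0.52) and the type III collagen Col3a1 (0.39) were not called. The collagen chaperone Serpinh1 rose by 2.14 and tenascin Tnc by 2.62. The smallest rise of the list was that of Acta2 (0.39), which was not called without no-swelling replicate 1 (adjusted p = 0.0521 in limma's test), and the mean of its probe sets changed by -0.03.

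Matrix-degrading enzymes rose in 13 of 16, with a median of 1.54 and 0 falls. Mmp9, a gelatinase of neutrophils and osteoclasts, read 106, 10.1 and 25.5 without swelling and 247, 197 and 458 with mild swelling and rose by 2.55 ± 0.44. Mmp13, the collagenase that cleaves type II collagen, read 157, 9.60 and 14.4 without swelling and 215, 82.2 and 1169.8 with mild swelling. Its groups overlapped, and its rise of 2.55 ± 0.73 (adjusted p = 0.0116) rested on single arrays. It was 1.55 (adjusted p = 0.0666) without mild replicate 3, and the adjusted p was 0.0557 without no-swelling replicate 2 and 0.056 without replicate 3. The aggrecanases Adamts4 (2.02) and Adamts5 (1.04) also rose. Of 9 protease inhibitors 4 rose and 3 fell. Timp1, an inhibitor of metalloproteinases, read 940.0, 768 and 169 without swelling and 3554, 3523 and 4732 with mild swelling and rose by 2.92 ± 0.42, and Timp4 fell by 1.32. Lysosomal proteases rose in 8 of 10, led by Ctsk (2.35), the collagen-degrading cathepsin of osteoclasts and fibroblasts.

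Cartilage and bone genes changed in part. Of 10 cartilage genes tested 4 rose, Acan (1.60), Col11a1 (1.49), Comp (1.41) and Col2a1 (1.31). Acan, the aggrecan core protein, read 19.9, 47.3 and 23.4 without swelling and 92.4, 56.6 and 299 with mild swelling, and its highest mild value came from replicate 3. Without that array Col2a1 had an adjusted p of 0.094 in limma's test, and without no-swelling replicate 2 it had 0.0773. Comp was not called without mild replicate 1 or 3 or no-swelling replicate 1 or 3 (adjusted p up to 0.133), and without mild replicate 3 the list had 2 rises. The summed cartilage signal ranged from 660.3 to 1101 without swelling and from 900.4 to 3512 with mild swelling. Osteoclast genes rose in 6 of 12, including Atp6v0d2 (1.57), a proton pump subunit, while the osteoclast transcription factor Nfatc1 fell (-0.46). Of 4 osteoblast genes only Col1a1, which fibroblasts also express, rose. Sp7 (-0.22) and Ibsp (0.14) were not called. Wnt-related genes rose in 4 of 12, beside 23% of all genes, with Ccn4 at 2.77. The antagonist Frzb fell (-0.65), a call lost without mild replicate 3, no-swelling replicate 1 or no-swelling replicate 3 (adjusted p up to 0.187 in limma's test).

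Proliferation and secretion genes rose together. Of 18 cell cycle genes 17 rose, with a median of 1.64 and Aurka (-0.01) as the exception. Rrm2, a subunit of ribonucleotide reductase, read 78.4, 38.1 and 29.7 without swelling and 389.7, 312 and 599 with mild swelling and rose by 2.82 ± 0.25. Mki67, a marker of dividing cells, read 90.7, 53.1 and 21.3 without swelling and 323, 208 and 471 with mild swelling and rose by 2.36 ± 0.33. Genes of the secretory pathway rose in 15 of 18, at a median of 0.79. Creb3l1, a transcription factor of collagen secretion, rose by 1.89 ± 0.19, and the translocon gene Sec61a1 by 1.86. The stress factors Ddit3 (0.20) and Atf4 (0.09) were not called. Immediate early genes, fast responders to cytokines and stress, rose in 11 of 16, among them Fosl1 (1.64), Fosl2 (1.77) and Junb (1.39), while Jun (0.54) and Atf3 (0.63) were not called.

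**Figure D3:**
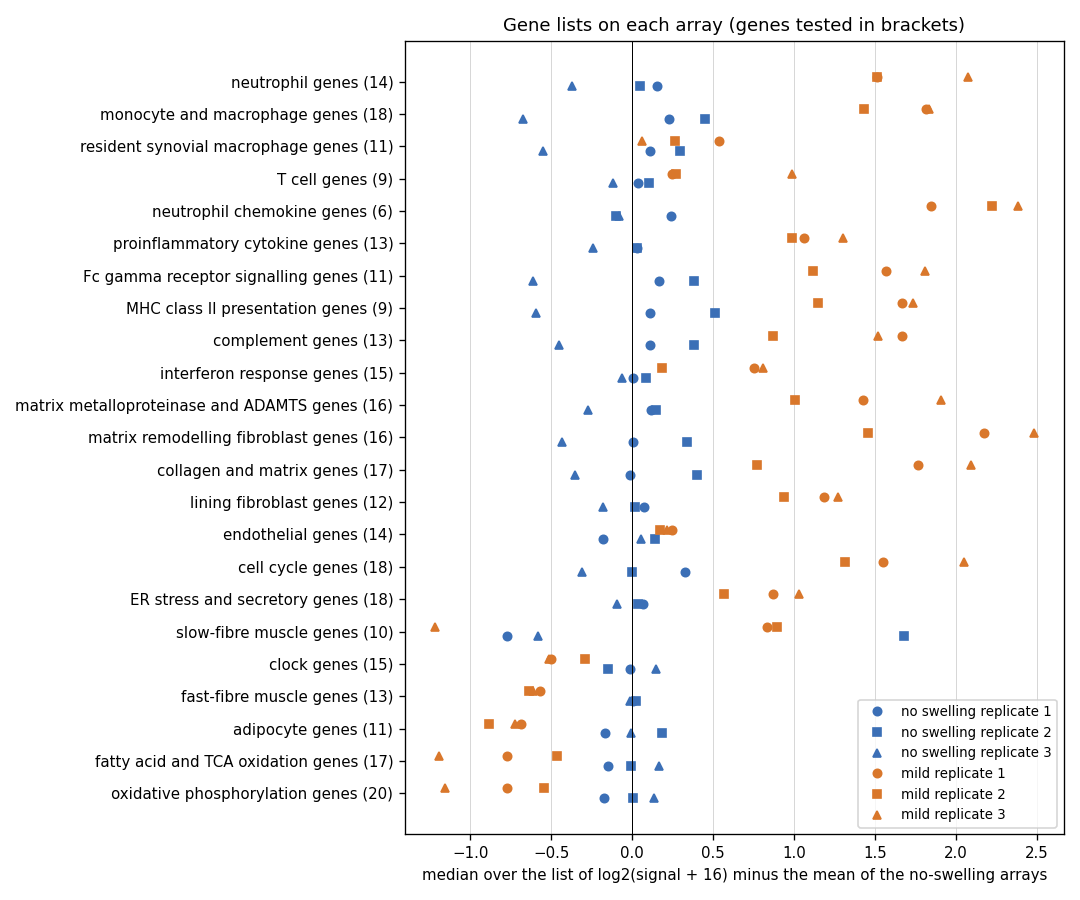
Median over each gene list of log2(signal + 16) minus the mean of the unswollen arrays (horizontal axis), for the 3 unswollen arrays in blue and the 3 mild arrays in orange, with the number of genes tested in brackets. Mild arrays lie above the unswollen arrays for the neutrophil, cytokine, matrix and cell cycle lists and below for the fast-fibre and respiratory lists, while resident macrophage genes overlap and slow-fibre genes scatter within both groups.

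The 12 largest falls belonged to genes of several kinds. Fn3k, an enzyme that removes sugar adducts from proteins, read 129.8, 167 and 141 without swelling and 16.3, 42.8 and 5.70 with mild swelling and fell by 2.22 (adjusted p = 3.88e-05). Ank1, an ankyrin with a muscle form at the sarcoplasmic reticulum, read 3449.5, 3941 and 3906 without swelling and 732, 2185 and 603 with mild swelling and fell by 1.91. Mild replicate 2 was the highest of the mild arrays in both. Adipoq, the adipocyte hormone adiponectin, read 1211, 2027 and 1509 without swelling and 539, 206 and 597 with mild swelling and fell by 1.89 (adjusted p = 0.00765), and here mild replicate 2 was the lowest. Ky, needed for muscle maintenance, fell by 1.89, the cardiac-type actin Actc1 by 1.80 and the glucocorticoid-responsive factor Klf15 by 1.79. The other members of the 12 were Phgr1 (-1.85), Plcd4 (-1.80), Nnat (-1.79), Akr1b10 (-1.77), Hhatl (-1.76) and the lipogenic gene Thrsp (-1.75).

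Mitochondrial genes fell as lists. All 20 tested genes of oxidative phosphorylation fell, at a median of -0.82, where 15.6% of all genes fell. Ndufb8, a subunit of complex I, read 5380.3, 6080.2 and 7269.9 without swelling and 3289.6, 3604 and 2741 with mild swelling and fell by 0.95. Uqcrfs1, the Rieske subunit of complex III, read 4832, 5354 and 6143 without swelling and 2878, 3208 and 1963 with mild swelling and fell by 1.04. Neither gene overlapped between the groups. Fatty acid and citric acid cycle genes fell in 15 of 17, at the same median of -0.82, and Ppargc1a, a coactivator of mitochondrial biogenesis, fell by 1.63. Of the oxidative phosphorylation genes 12 fell with quantile normalization, and with scaling on hybridization controls 0 fell and their median was -0.04. For the fatty acid and citric acid cycle genes these counts were 13 and 1, and the median with control scaling was -0.05. Without mild replicate 1, mild replicate 3 or no-swelling replicate 3, 18, 16 or 17 oxidative phosphorylation genes fell. Cox7a1, a muscle form of a complex IV subunit, had overlapping groups, and without mild replicate 3 its change was -0.52 (adjusted p = 0.121 in limma's test). Its adjusted p was 0.056 without mild replicate 1, and 0.0611 and 0.0891 without no-swelling replicates 2 and 3.

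Contractile genes were described by fibre type, and the difference between the types was not tested. Of 13 fast-fibre genes 12 fell, at a median of -0.61. Mylpf, the fast regulatory light chain, read 14158, 14667 and 14371 without swelling and 9219, 8547 and 8360.4 with mild swelling and fell by 0.73. Myh4, a fast myosin heavy chain, fell by 0.54 (adjusted p = 0.0429), a call that was lost when any 1 of the 6 arrays was left out. The call of Ckm was lost in the same way. Acta1 was not called without mild replicate 2 or no-swelling replicate 2 (adjusted p up to 0.0608 in limma's test). Myh1 was not called without mild replicate 3 or no-swelling replicate 3 (adjusted p up to 0.0894). With quantile normalization 0 of the fast-fibre genes were called and their median was -0.03, and scaling on hybridization controls gave a median of 0.17. These genes were among the brightest of the arrays. Slow-fibre genes gave 0 calls of 10, with a median of 0.24. This median was -0.26, -0.11 and 0.72 without mild replicates 1, 2 and 3, and -0.09, 0.97 and -0.07 without no-swelling replicates 1, 2 and 3. Without no-swelling replicate 2, 4 slow-fibre genes rose, and 1 fell without mild replicate 1, mild replicate 2 or no-swelling replicate 1. Myh7, the slow myosin, read 87.4, 763 and 65.5 without swelling and 575, 503 and 35.7 with mild swelling, and the order of the arrays did not follow swelling. Of 16 genes of muscle regeneration and denervation 5 rose, beside 23% of all genes. They were Ankrd1, Ncam1 (1.99), Runx1 (0.99) and the metallothioneins Mt1 (0.99) and Mt2 (0.74). Mt2 was not called without mild replicate 1, mild replicate 3 or no-swelling replicate 3 (adjusted p up to 0.0946 in limma's test), which left 4 rises. The myogenic factors Myod1 (-0.06) and Myog (0.20) were not called.

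Adipocyte genes fell in 7 of 11, at a median of -0.82. Their summed signal ranged from 14209 to 18380.0 without swelling and from 8452 to 9228 with mild swelling. The lipase Lpl fell by 1.16 and the fatty acid transporter Cd36 by 0.82, while the lipase Lipe (-0.23) was not called. With scaling on hybridization controls 1 adipocyte gene was called and the median was -0.25. Glycolysis genes split, with 6 rises and 10 falls among 18. The widely expressed phosphoglycerate mutase Pgam1 read 254, 236 and 178 without swelling and 734, 528 and 1100.2 with mild swelling and rose by 1.70 ± 0.20. The muscle form Pgam2 read 9205, 9113 and 9941 without swelling and 5174, 5984 and 4105 with mild swelling and fell by 0.90. The same division held for phosphofructokinase, where Pfkl (1.96) and Pfkp (1.11) rose and the muscle form Pfkm (-0.66) fell. The falls were not confined to genes of muscle forms, since Pgk1, Tpi1, Pkm, Ldha and Aldoa, which other tissues also express, fell too. Glucose transporter Slc2a1 (1.42) and hexokinase Hk1 (1.14) rose as well. With quantile normalization 6 glycolysis genes rose and 3 fell.

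The remaining lists were those of ribosomes, blood, skin, nerve and the circadian clock. Ribosomal protein genes fell in 1 of 9, Rpl4 (-0.49), and their median of -0.22 became 0.15 with quantile normalization. Without no-swelling replicate 2, 2 of them fell. Of 4 erythroid and 5 keratinocyte genes 0 were called. Without mild replicate 2, 1 erythroid gene fell. Among 5 nerve genes Pmp22 (0.51) rose and Ncmap (-1.24) fell, and in limma's test Pmp22 had an adjusted p of 0.0924 without mild replicate 3, 0.0771 without mild replicate 1 and 0.0739 without no-swelling replicate 3. Clock genes fell in 5 of 15, beside 15.6% of all genes, and rose in 2. Without mild replicate 2 or with aligned medians 9 fell. Dbp, a clock-controlled transcription factor, read 2024, 1784 and 2141 without swelling and 741, 947 and 757 with mild swelling and fell by 1.27, but all of these arrays stood above the naive arrays, which read 182, 171 and 213. The clock repressor Cry2 fell by 1.11. Over the clock list the median change was -0.35, but 0.38 when arrays were scaled on hybridization controls.

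The mild group was not uniform. In 2439 of the 3286 genes that rose (74.2%), mild replicate 2 had the lowest of the 3 mild signals, and in 1669 of the 2230 that fell (74.8%) it had the highest. Without it 3489 genes rose and 2414 fell, and 3074 of the rises and 2079 of the falls remained. Leaving out mild replicate 3, the array farthest along the first component, gave 2511 rises and 1593 falls. For Il6 the order was another, since mild replicate 2 read the highest of the mild arrays.

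The step into mild swelling was then set against the next step, from mild to moderate swelling. Both steps use the mild arrays, so a high or low mild value moves them in opposite directions. Their difference was tested in the same fit. It was called for 240 genes (1.68%), with 213 more positive at the onset (1.49%) and 27 more negative (0.189%). Of the 213, 208 were rises at the onset and 108 had a next step below 0. All 27 were falls at the onset, and 24 had a next step above 0. The count rested on single mild arrays, with 2 genes called without mild replicate 1, 15 without replicate 3 and 792 without replicate 2. Without no-swelling replicate 3 it was 104, and without moderate replicate 2 or 3 it was 104 or 44.

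Genes with a more positive step at the onset included enzymes of hyaluronan and prostaglandin synthesis and stress genes of muscle. The step from mild to moderate swelling was not tested by itself. Rrad, a small GTPase of muscle that limits calcium channels, read 1508, 363 and 554 without swelling and 3168, 2230.0 and 2461 with mild swelling, and 1018, 598 and 472 with moderate swelling. Its steps of 1.92 and -1.95 differed by 3.86 ± 0.75 (adjusted p = 0.024 in limma's test). Ankrd1 read 1652, 281 and 328 without swelling and 5542, 3917 and 4799 with mild swelling, and 3197, 3816 and 2344 with moderate swelling, so its steps of 3.09 and -0.62 differed by 3.71 ± 0.85. For both genes the unswollen replicate 1 stood above its group, and the moderate arrays lay below the mild mean. Ptgs2 had steps of 3.25 and -0.53 (difference 3.78 ± 0.50), Has2 of 2.90 and -0.49 (difference 3.39 ± 0.35), and the predicted gene Gm13889 of 2.23 and -1.503 (difference 3.74 ± 0.78). Cxcl5 went on by 0.54 after its onset step of 3.90, a difference of 3.36 ± 0.36.

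Other genes had positive changes at both steps, and their difference was not called. Mmp13 changed by 2.55 at the onset and by 3.62 at the next step, where its moderate arrays read 2914, 4768 and 3572 (difference -1.08 ± 1.26, adjusted p = 0.731 in limma's test). Cdh11 changed by 2.54 and 1.96, C1qtnf3 by 3.06 and 1.99, and Acan by 1.60 and 1.495. Among the 27 genes with a more negative step at the onset, Lrrc51 had steps of -1.36 and 0.83. Lactb, a mitochondrial protease-like filament protein, had steps of -1.22 and 0.53, and Cry2 of -1.11 and 0.60. Those of Lsm14b were -1.35 and 0.35, of Dbp -1.27 and 0.32, and of Cebpzos -1.02 and 0.37. For Cry2, the signals were 257, 272 and 248 without swelling and 118, 117 and 99.2 with mild swelling, and 162, 175 and 196 with moderate swelling, so all moderate arrays lay between the other groups.

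**Figure D4:**
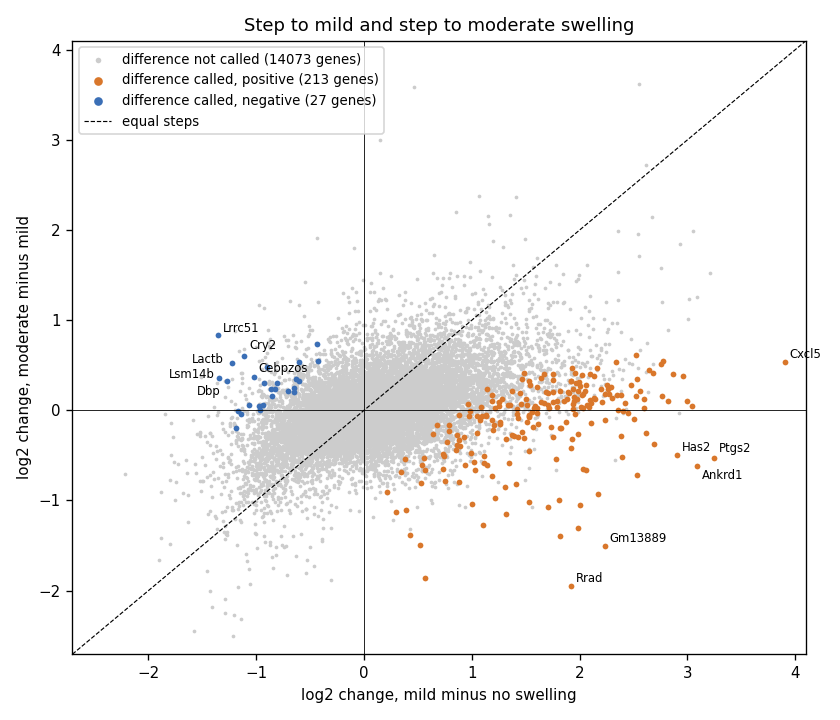
Log2 change from mild to moderate swelling (vertical axis) against the change from no to mild swelling (horizontal axis) for 14313 genes, with the 213 called positive and 27 called negative differences coloured, the 12 named genes labelled and a dashed line where the steps are equal. The axes share the mild arrays, so a deviation of the mild group moves a point in opposite directions along them.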

How the data were processed

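Biotin-labelled RNA of each mouse knee synovium sample was hybridized to 1 Affymetrix array, per the labels' protocols. The deposited intensity values cover 45101 probe sets. Per the submitters' processing notes they come from MAS5, of a version not given in the sources examined. Their mean after trimming 2% at each end was 150 on all 15 arrays, and no further scaling was applied. Array medians were 36.3 to 47.6, and precision is limited by how few arrays there are. Dim genes have understated changes because 16 was added before log2.

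Gene names came from the platform annotation of GEO, possibly outdated: 34958 probe sets have 1 symbol, 932 several and 9211 none here. A gene was represented by its brightest probe set, and 14313 of 18193 genes passed the filter, a signal over the 40th percentile of its array on 3 or more of 15 arrays. Of 3040 called genes with other probe sets, 81 had one called in the opposite direction. Groups came from titles. The model was fitted with limma 3.58.1 in R 4.3.3 as 5 group means over 15 arrays, with an intensity trend (10 residual and 5.52 prior degrees of freedom), two-sided, with no replicate block. On simulated data for mild against no swelling over 14313 genes, the same steps recovered 20%, 64%, 94% and 100% of 50 genes each shifted by 0.5, 1, 2 and 3, and 4.14% of calls were false. The simulated noise was drawn once, independently for each gene and array, and no other genes were shifted. Deviations shared by many genes of an array were not simulated, so the share of false calls in the data is not known from this.

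The comparison, the 52 gene lists and the tests were chosen with earlier results of these data known. Named were the 12 largest rises and falls without overlap, the 3 lowest p-values of each list (fewer in shorter lists), the 6 largest differences between steps each way and a panel. Other list members were named after their values were seen. Alternatives were pseudocounts of 1 and 64, no filter or a 60th percentile filter, quantile normalization, aligned medians, scaling on 9 hybridization controls, all probe sets taken singly, the mean over a gene's probe sets, only the groups compared, no trend, a replicate block, array weights, a threshold of 0.01 and leaving out each array.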

Additional observations from a re-analysis of the deposited data

How the results depend on the processing

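Of the counts for mild against no swelling, those under other pseudocounts, filters, quantile normalization, aligned medians, the mean of probe sets, no trend, only the groups compared and array weights lay within 1.5 times. Every probe set by itself gave 9975 calls (5799 rises, 4176 falls), a threshold of 0.01 gave 3639 calls (1409 falls), and scaling on hybridization controls gave 6511 rises and 35 falls. Leaving out 1 array gave 4104 to 5903 calls, 2511 to 3489 rises and 1593 to 2414 falls. The replicate block gave 5237 calls. Deviations from the group means correlated at -0.0337, -0.14 and -0.252 between same-numbered arrays, and at -0.121 to 0.268 between arrays of different number. With 3 arrays a group, these values cannot show whether the numbers pair the samples. The difference between steps was called for 240 genes, but for 129 with no filter, 66 with aligned medians, 899 with hybridization control scaling, 104 with no trend, 21 with only the groups compared, 125 with the replicate block, 5388 with array weights (whose estimate did not fully converge, so its counts are doubtful), 12 at a threshold of 0.01, and 2 to 792 when 1 array was left out. The causes were not tested.

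Over 189 named genes and all alternatives, 3606 values kept direction and side of the threshold, 83 lost and 43 gained the call, and 36 reversed. Of the 165 called, 12 lost the call in at least 1 fit without an array. With quantile normalization Myh4 was 0.025, Rps20 0.070, Rps3 0.14 and Tnnt3 0.051. With hybridization control scaling 25 reversed, Acta1 to 0.11, Actn3 0.13, Alpl 0.39, Casq2 0.093, Cox5a 0.35, Eomes 0.33, Fabp4 0.13, Hba-a1 0.32, Krt10 0.15, Lor 0.22, Mbp 1.45, Myh4 0.25, Mylpf 0.058, Prf1 0.22, Prtn3 0.033, Rpl4 0.29, Rps20 0.43, Rps3 0.51, Sp7 0.40, Sparcl1 0.20, Tef 0.21, Tfrc 0.46, Tnf 0.15, Tnnt3 0.22 and Trp63 0.025. The mean of its probe sets turned Acta2 to -0.031. Without 1 array Myh7 ranged from -0.19 to 1.56 and Tnf from -0.54 to 0.39.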

Other observations

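Probe sets outside the platform annotation used here were called less often at the onset than probe sets as a whole. Of 4791 such probe sets above the filter, 593 rose and 362 fell, against 5799 rises and 4176 falls among all 31480 probe sets tested one by one with limma at an adjusted p under 0.05. They carry no gene name here.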
